A study of Mus musculus with 8 samples.

Results

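Collagens and the proteins that assemble with them were followed in mouse fat cells, as 54 genes measured by 93 probe sets, out of 12393 genes and 20380 probe sets that carry 1 gene name. The members are every gene whose symbol has the collagen form (a collagen type and a chain, 36 genes) together with 18 others that were listed by name: adhesive and elastic-fibre glycoproteins, small proteoglycans, and the enzymes that hydroxylate and crosslink collagen. Fbn1 and Loxl2, also listed, were not analysed here. Cells of the stromal-vascular fraction of inguinal white fat from male C57BL/6J mice had been differentiated into adipocytes in culture. Each of 4 groups had 2 biological replicates, 1 array each: cells expressing the short hairpin labelled sh-scr without or with 1 µM rosiglitazone (untreated and treated sh-scr), and cells expressing sh-PRDM16 without or with it (untreated and treated sh-PRDM16). All groups share the strain, sex, depot and in vitro differentiation, and the labels do not say how many animals or separate cultures stand behind a replicate, so the p-values below measure the spread between these arrays. Rosiglitazone is an agonist of PPARγ, the nuclear receptor that drives fat-cell differentiation, and PRDM16 is a transcriptional coregulator of the brown-fat programme. The level of Prdm16 itself was not analysed here.

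Collagens are triple helices of 3 chains. Fibrillar collagens (types I, III, V and XI) form the tensile fibres of connective tissue, type IV forms the sheet-like network of the basement membrane that surrounds each adipocyte, type VI forms beaded filaments between these layers, and the fibril-associated collagens (FACITs, such as types XII and XIV) sit on fibril surfaces. Inside the cell, prolyl hydroxylases (P4ha) stabilise the helix and lysyl hydroxylases (Plod) prepare it for crosslinking. Outside it, lysyl oxidases (Lox) crosslink the fibres, and leucine-rich proteoglycans such as decorin and lumican set fibril width. Preadipocytes and fibroblasts are rich in fibrillar matrix, and differentiating fat cells are known to trade part of it for basement membrane.

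RefSeq promoter windows (mouse build GRCm38.p6, the 250 bases before a transcription start, written 5′ to 3′ on the strand of the gene) were given for 37 of the 54 genes. They are shown for 4 genes, chosen because results below turn on them and because no annotated gene lies on their windows: Fbln1, which fell with rosiglitazone in both lines; Col8a1, which was lower in sh-PRDM16 cells with and without the drug; Thbs2, which was higher in sh-PRDM16 cells with the drug; and Fmod, which was lower in them without it. Capitals mark matches on either strand to the CCAAT box (CCAAT or ATTGG), the TATA box (TATAAA or TTTATA) and the GC box (GGGCGG or CCGCCC).
Fbln1, chr15:85205699-85205948, plus strand: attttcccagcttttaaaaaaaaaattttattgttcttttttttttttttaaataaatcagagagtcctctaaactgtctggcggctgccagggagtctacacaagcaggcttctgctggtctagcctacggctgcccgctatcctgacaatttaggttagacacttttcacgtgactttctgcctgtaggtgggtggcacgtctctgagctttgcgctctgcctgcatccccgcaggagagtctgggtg
Col8a1, chr16:57754738-57754987, minus strand: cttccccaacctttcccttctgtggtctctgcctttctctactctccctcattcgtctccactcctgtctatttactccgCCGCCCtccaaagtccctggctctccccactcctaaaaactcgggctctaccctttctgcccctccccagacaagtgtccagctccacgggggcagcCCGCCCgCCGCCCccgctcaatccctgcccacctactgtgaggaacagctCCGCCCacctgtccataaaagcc
Thbs2, chr17:14694263-14694512, minus strand: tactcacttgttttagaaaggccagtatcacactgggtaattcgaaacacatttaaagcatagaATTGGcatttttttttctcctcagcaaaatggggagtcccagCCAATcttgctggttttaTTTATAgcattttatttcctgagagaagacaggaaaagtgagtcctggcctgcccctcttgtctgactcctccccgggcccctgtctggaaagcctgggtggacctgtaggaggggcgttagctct
Fmod, chr1:134037004-134037253, plus strand: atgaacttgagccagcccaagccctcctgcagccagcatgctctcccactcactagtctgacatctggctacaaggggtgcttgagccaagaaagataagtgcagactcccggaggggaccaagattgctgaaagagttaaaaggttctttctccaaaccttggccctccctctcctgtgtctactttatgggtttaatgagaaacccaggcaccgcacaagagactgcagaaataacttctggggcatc
The CCAAT box was found in 12 of the 37 windows and in 34.5% of all 27025 promoter windows of that length. The TATA box was found in 8 of 37, against 13% of all, and the GC box in 20 of 37, against 32.9%. The Fbln1 and Fmod windows held none of these letters, the Col8a1 window held 4 GC boxes, and the Thbs2 window held 2 CCAAT boxes and 1 TATA box. A match is a run of letters, not a measured binding site.

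The deposited values were linear array intensities. Array medians ran from 101 to 136, and the treated sh-scr arrays had a lower median (108 and 101) than the untreated ones (127 and 136). Of the 54 members, 42 passed a filter that left out the 25% of genes with the lowest mean. The 12 that did not (Col2a1, Col4a4, Col4a6, Col9a2, Col9a3, Col10a1, Col13a1, Col17a1, Col19a1, Col22a1, Col25a1 and Col26a1, mostly collagens of cartilage and epithelia) read between 0.6 and 43.6 on every array. A log2 change below is a difference of group means of log2(intensity + 16) from limma with its standard error (SE), and the adjusted p is Benjamini-Hochberg over the 9294 genes tested. A gene is said to rise, fall or be higher or lower only where that p is under 0.05. The p is that of the deposited scale unless another scale or probe set is named. The median change of all 9294 genes was -0.31 with rosiglitazone in sh-scr cells and 0.00 in sh-PRDM16 cells, so counts of falls are given again after every array was centred on its own median (after centring).

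Rosiglitazone lowered many matrix genes in sh-scr cells: 20 of the 42 tested fell and 0 rose, with 27 at an unadjusted p under 0.05, and the median change was -0.44. Over all genes 32.2% fell, and 4641 of 9294 had an unadjusted p under 0.05. The largest falls were those of Eln (elastin, -1.17), Plod2 (a lysyl hydroxylase, -1.07), Col14a1 (-0.99), Fbln1 (fibulin 1, -0.96), Lum (lumican, -0.91) and Col8a1 (-0.83). After median-centring, 9 members fell, against 11.9% of all genes, and Col5a3 and Plod1 rose, against 14.2%. After quantile normalization 17 fell, against 14.9%. Of the 20, 9 fell on all 3 scales: Col4a2, Col4a5, Col12a1, Col14a1, Eln, Fbln1, Fn1, Lum and Plod2. Leaving out an untreated sh-scr array brought the count to 9 (replicate 1) or 7 (replicate 2), and leaving out replicate 2 of the treated sh-scr cells brought it to 6.

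In sh-PRDM16 cells 5 of 42 fell with rosiglitazone and 0 rose, where 3.34% of all genes fell: Lum (-0.68), Plod2 (-0.64), Col14a1 (-0.63), Fbln1 (-0.61) and Col12a1 (-0.57). The median change of the members was -0.16. These 5 fell on all 3 scales and are also among the 20 that fell in sh-scr cells, which makes 25% of the sh-scr list and 100% of the sh-PRDM16 list as deposited. After centring the lists shared 8 members (88.9% of the sh-scr and 57.1% of the sh-PRDM16 list), and after quantile normalization 13 (76.5% of each). On the deposited scale, of all genes tested, 265 fell in both lines, which is 8.85% of those that fell in sh-scr cells and 85.5% of those that fell in sh-PRDM16 cells. The shares for all genes were 47.2% and 56.7% after centring, and 53.5% and 58.9% after quantile normalization. Centring on the median raised the count of members that fell in sh-PRDM16 cells to 14, against 9.91% of all genes. Quantile normalization raised it to 17, against 13.6%. Leaving out an untreated sh-PRDM16 array brought the count to 2 (replicate 1) or 3 (replicate 2). Leaving out replicate 1 of the treated sh-PRDM16 cells brought it to 0, when 8 members were at an unadjusted p under 0.05 in limma.

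**Figure D1:**
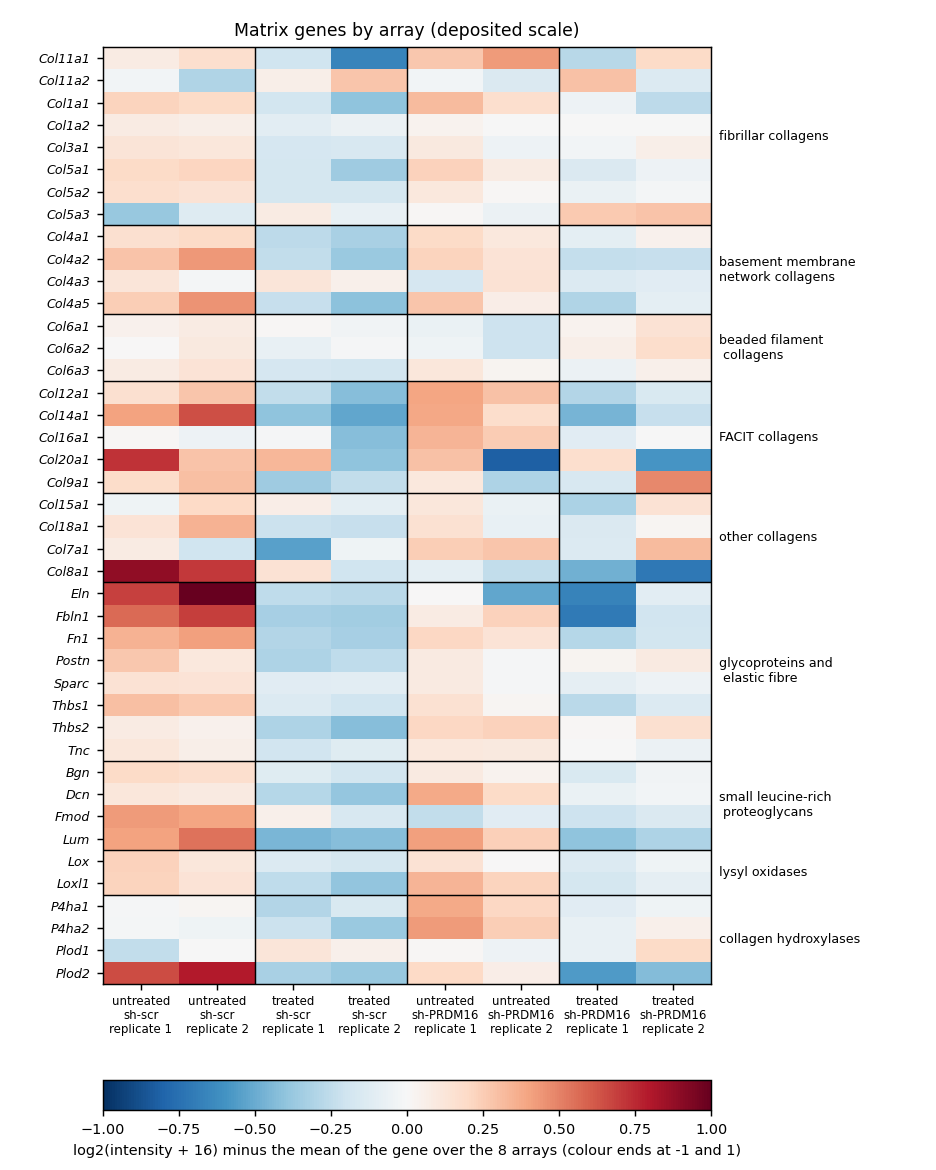
Each row is 1 of the 42 matrix genes tested, grouped by role, and each column is 1 array; colour gives log2(intensity + 16) minus the mean of that gene over the 8 arrays. Eln, Fbln1, Plod2 and Col14a1 are highest in the untreated sh-scr arrays, and Col8a1 is high there alone.

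**Figure D2:**
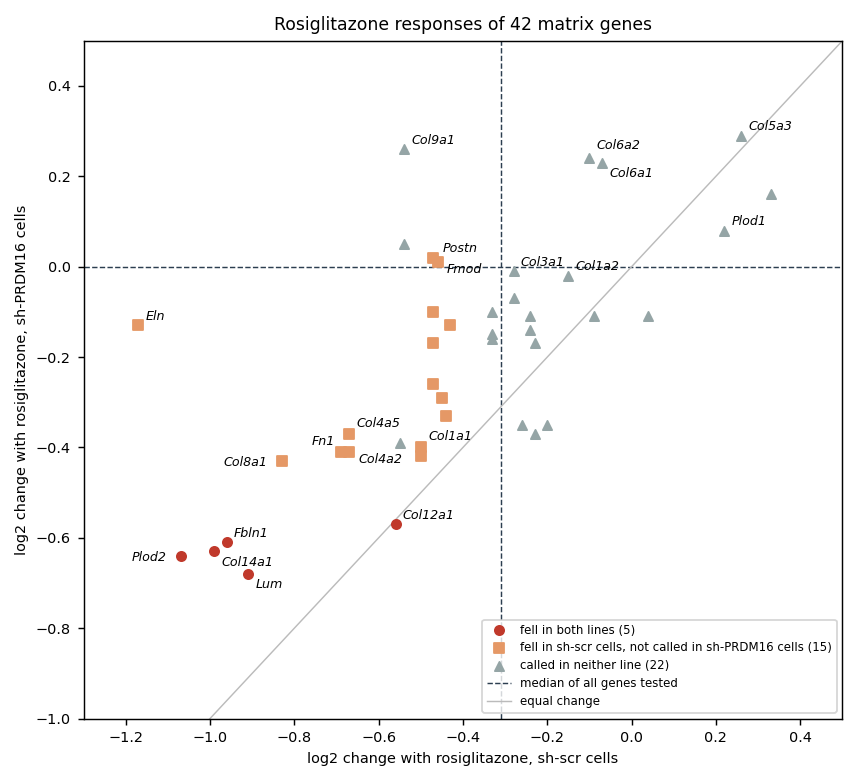
Each point is 1 of the 42 matrix genes, with its log2 change with rosiglitazone in sh-scr cells on the horizontal axis and in sh-PRDM16 cells on the vertical axis; dashed lines mark the median of all genes tested (-0.31 and 0.00). The 5 genes that fell in both lines lie at the lower left, Eln lies far left at -0.13 on the vertical axis, and Col6a1 and Col6a2 lie above 0 on that axis.

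Of the 5 FACIT collagens tested, 2 fell in both lines, as deposited and after centring. Over all genes 32.2% fell in sh-scr and 3.34% in sh-PRDM16 cells as deposited, and 11.9% and 9.91% after centring. Col12a1, whose protein bridges collagen I fibrils to neighbouring matrix, read 588 and 639 in untreated and 439.5 and 386 in treated sh-scr cells. In sh-PRDM16 cells it read 693 and 646 without and 424 and 471 with the drug. Both treated arrays lay below both untreated arrays in each line, and the changes were -0.56 ± 0.13 (SE; adjusted p = 0.0142) in sh-scr and -0.57 ± 0.13 (SE; adjusted p = 0.0235) in sh-PRDM16 cells. Col14a1, a fibril-surface collagen, read 645 and 766 untreated and 362 and 332 treated in sh-scr cells. The sh-PRDM16 values were 635 and 549 and then 346 and 411. The groups again did not overlap within a line, with changes of -0.99 ± 0.15 (SE; adjusted p = 0.00282) and -0.63 ± 0.15 (SE; adjusted p = 0.0263). Col16a1 was not called in either line (-0.20 and -0.35). Col9a1 and Col20a1 were dim, at 17.5 to 43.8 and 7.0 to 50.8 over the arrays, and neither was called.

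Among the fibrillar collagens, 2 of 8 tested fell in sh-scr cells and 0 in sh-PRDM16 cells, beside the 32.2% and 3.34% of all genes. After centring 0 fell and 1 rose in sh-scr cells, and 1 fell in sh-PRDM16 cells. Col1a1, one chain of the main fibre-forming collagen, read 6631 and 6509 untreated and 5015 and 4305 treated in sh-scr cells, a change of -0.50 ± 0.14 (SE; adjusted p = 0.0246). The sh-PRDM16 arrays gave 7078 and 6396 and 5489 and 4751, a change of -0.40 ± 0.14 (SE; adjusted p = 0.0999). Its arrays did not overlap by treatment in either line. Col1a2, the partner chain, read 17686 and 17464 untreated and 15531 and 16064 treated in sh-scr cells and 17133 and 16687 then 16642 and 16723 in sh-PRDM16 cells. Its changes were -0.15 ± 0.12 and -0.02 ± 0.12 (SE), with limma adjusted p of 0.312 and 0.945.

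Col5a1, which nucleates fibrils, fell in sh-scr cells from 8293 and 8462 to 6441 and 5693, a change of -0.47 ± 0.13 (SE; adjusted p = 0.0237). In sh-PRDM16 cells it read 8533 and 7706 and 6577 and 7012, with a change of -0.26 ± 0.13 (SE; adjusted p = 0.25). Col3a1 and Col5a2 missed the threshold in sh-scr cells on their brightest probe sets, at -0.28 (adjusted p = 0.0966) and -0.33 (adjusted p = 0.0537), and in sh-PRDM16 cells at -0.01 and -0.10; their other probe sets are described below. Col5a3, another type V chain, had a positive change in both lines, 0.26 ± 0.14 (SE; adjusted p = 0.158) and 0.29 ± 0.14 (SE; adjusted p = 0.205). It read 1249.6 and 1493 against 1725 and 1551 in sh-scr and 1644 and 1568 against 1955 and 1986 in sh-PRDM16 cells, and it rose in sh-scr cells only after centring (0.55) or quantile normalization.

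Of the 4 basement membrane chains tested, 3 fell in sh-scr cells and 0 in sh-PRDM16 cells (32.2% and 3.34% of all genes). After centring 2 fell in each line (11.9% and 9.91% of all genes). Col4a1 and Col4a2, neighbouring genes, encode the chains of the common type IV network. Col4a1 read 10015 and 10220.3 untreated and 7450.3 and 7149.5 treated, a change of -0.47 ± 0.12 (SE; adjusted p = 0.0199), and Col4a2 read 5897 and 6551 and 4082 and 3748, a change of -0.67 ± 0.13 (SE; adjusted p = 0.00665). In sh-PRDM16 cells Col4a1 read 10210.4 and 9626 and then 8360.4 and 9253, with a change of -0.17 ± 0.12 (SE). Col4a2 read 5647 and 5319 and then 4113 and 4135, with a change of -0.41 ± 0.13 (SE; adjusted p = 0.0662). The treated and untreated arrays of both genes did not overlap in either line, and the call for Col4a2 in sh-PRDM16 cells was made after centring (-0.43). Col4a5, a chain of a more restricted network, fell in sh-scr cells from 808 and 936 to 577 and 508, a change of -0.67 ± 0.15 (SE; adjusted p = 0.0114), with a change of -0.37 in sh-PRDM16 cells (adjusted p = 0.149). Col4a3 was near the floor, at 19.3 to 28.0.

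The type VI chains, which form the filaments around fat cells, were not called in either line. Col6a1 read 6838 and 7031 untreated and 6692 and 6490.3 treated in sh-scr cells, and 6338 and 5752 then 6821 and 7349 in sh-PRDM16 cells. Its changes were -0.07 ± 0.13 (SE; adjusted p = 0.656) and 0.23 ± 0.13 (SE; adjusted p = 0.28). Col6a2 read 7012 and 7482 and 6614 and 6908 in sh-scr cells and 6793 and 6057 and 7265 and 7874 in sh-PRDM16 cells, with changes of -0.10 ± 0.13 (SE; adjusted p = 0.552) and 0.24 ± 0.13 (SE; adjusted p = 0.278). On these probe sets the treated arrays of both genes lay below the untreated ones in sh-scr cells and above them in sh-PRDM16 cells. Opposite responses without overlap, in either order, were seen in 8.62% of all genes on the deposited scale. After median-centring they were seen in neither gene, and the share of all genes was not counted on that scale. The dimmer Col6a2 probe set did not show the pattern. It read 3173 and 3646 untreated and 3512 and 3645 treated in sh-scr cells, a change of 0.07. Col6a3 read 8487 and 8847 and 7157 and 7067 in sh-scr cells and 8682 and 8177 and 7725 and 8328 in sh-PRDM16 cells, with changes of -0.28 (adjusted p = 0.0928) and -0.07 (adjusted p = 0.769).

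Of the other collagens, Col8a1, a short-chain network collagen of vessel walls and stroma, read 529.8 and 466 in untreated sh-scr cells and 309 and 240.5 in treated ones. It fell by 0.83 ± 0.16 (SE) on the log2 scale (adjusted p = 0.0071), and was not called after centring (-0.54). In sh-PRDM16 cells it read 259 and 232 without and 195 and 163 with the drug, a change of -0.43 ± 0.16 (SE; adjusted p = 0.12). Col18a1, whose cleavage releases endostatin, fell in sh-scr cells (-0.47 ± 0.14 (SE; adjusted p = 0.0329)) with a change of -0.10 in sh-PRDM16 cells. Col15a1, its basement membrane relative, was not called: it read 528 and 624 against 569 and 506 in sh-scr and 588 and 518 against 432 and 602 in sh-PRDM16 cells, with overlapping groups and changes of -0.09 ± 0.18 (SE; adjusted p = 0.69) and -0.11 ± 0.18 (SE; adjusted p = 0.75).

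Glycoproteins and elastic-fibre proteins fell in 6 of 8 genes in sh-scr cells and in 1 of 8 in sh-PRDM16 cells, where 32.2% and 3.34% of all genes fell. After centring 3 of 8 fell in each line, against 11.9% and 9.91% of all genes. Fbln1, a fibulin that binds fibronectin and elastic fibres, read 496 and 542 untreated and 259.6 and 257 treated in sh-scr cells, and 351 and 390.5 then 196 and 287 in sh-PRDM16 cells. Its changes were -0.96 ± 0.17 (SE; adjusted p = 0.00544) and -0.61 ± 0.17 (SE; adjusted p = 0.0493), and in neither line did the treated arrays reach the untreated ones. The second of these calls is close to the threshold and is lost under 10 of 19 alternatives, among them 7 of the 8 that leave out 1 array. Eln, the core protein of elastic fibres, read 162 and 228 in untreated sh-scr cells and 77 and 75.8 in treated ones, a change of -1.17 ± 0.24 (SE; adjusted p = 0.00826). It was low in both sh-PRDM16 groups, at 95.5 and 61.3 and 53.7 and 87, and the arrays overlapped (-0.13 ± 0.24 (SE; adjusted p = 0.781)).

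Fn1, fibronectin, the scaffold on which collagen fibrils assemble, read 11419 and 11919 and 7332 and 7119 in untreated and treated sh-scr cells, and 10392 and 9898 and 7357 and 7931 in sh-PRDM16 cells. It fell in sh-scr cells (-0.69 ± 0.12 (SE; adjusted p = 0.00513)) and missed the threshold in sh-PRDM16 cells (-0.41 ± 0.12 (SE; adjusted p = 0.0577)), where it was called after centring (-0.43). Postn, periostin, read 14719 and 13114 and 9866 and 10238 in sh-scr cells, a change of -0.47 ± 0.13 (SE; adjusted p = 0.0216), and 12981 and 12134 and 12439.6 and 12972 in sh-PRDM16 cells, a change of 0.02 ± 0.13 (SE; adjusted p = 0.957). The sh-scr groups of Postn did not overlap and the sh-PRDM16 groups did. The 2 thrombospondins, matricellular proteins that bind matrix and activate latent TGF-beta (Thbs1) or modulate cell-matrix contacts (Thbs2), both fell in sh-scr cells, with changes of -0.45 ± 0.13 (SE; adjusted p = 0.0238) and -0.43 ± 0.13 (SE; adjusted p = 0.0274). Thbs1 read 12286 and 11959.7 untreated and 9075 and 8662 treated there, and 11072 and 10089 and 8272 and 9055 in sh-PRDM16 cells (-0.29, adjusted p = 0.179). Thbs2 read 8280.1 and 8048 and 6295 and 5822 in sh-scr cells, and 9007 and 9145 and 7862 and 8718 in sh-PRDM16 cells (-0.13, adjusted p = 0.561). After centring neither thrombospondin was called in sh-scr cells (-0.16 and -0.14). On that scale Thbs1 fell in sh-PRDM16 cells (-0.31) and Thbs2 was not called there (-0.15).

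Sparc, a collagen-binding protein needed for fibril maturation, and Tnc, tenascin C, were not called. Sparc read 22226 and 22098 and 18649 and 18766 in sh-scr cells and 21496 and 19971 and 18887 and 19445 in sh-PRDM16 cells, with changes of -0.24 (adjusted p = 0.132) and -0.11 (adjusted p = 0.611). The Sparc values lie near the highest intensities on these arrays, which ran from 19971 to 22736. Tnc read 14268 and 13728 and 11528 and 12105 in sh-scr cells and 14188 and 14139 and 13142 and 12639 in sh-PRDM16 cells, with changes of -0.24 and -0.14 (adjusted p = 0.131 and 0.528).

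Of the 4 leucine-rich proteoglycans, 3 fell in sh-scr cells and 1, Lum, fell in both lines, beside 32.2% of all genes in sh-scr and 3.34% in sh-PRDM16 cells. After centring there was 1 fall in sh-scr and 2 in sh-PRDM16 cells, against 11.9% and 9.91% of all genes. Lum read 454 and 503 untreated and 244 and 249 treated in sh-scr cells, and 456 and 404 then 254 and 271 in sh-PRDM16 cells. The treated arrays of both lines lay below all untreated ones, with changes of -0.91 ± 0.13 (SE; adjusted p = 0.00199) and -0.68 ± 0.13 (SE; adjusted p = 0.00877). Dcn, decorin, read 11040.2 and 10827 and 8350.1 and 7779.8 in sh-scr cells, a change of -0.44 ± 0.13 (SE; adjusted p = 0.0271). In sh-PRDM16 cells Dcn read 13242 and 11651 and 9753 and 10024, a change of -0.33 ± 0.13 (SE; adjusted p = 0.13) that was called after centring (-0.35). Fmod, fibromodulin, read 2812 and 2747 untreated and 2172 and 1873 treated in sh-scr cells (-0.46 ± 0.13 (SE; adjusted p = 0.026)), and 1758 and 1934 against 1812 and 1891 in sh-PRDM16 cells, where the groups overlapped (0.01 ± 0.13, SE). Bgn, biglycan, read 15703 and 15398 and 12656 and 12109.7 in sh-scr cells and 14612 and 14097 and 12384 and 13424 in sh-PRDM16 cells, and missed the threshold in both (-0.33, adjusted p = 0.0599, and -0.15, adjusted p = 0.475).

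Among the modifying enzymes, Plod2, the lysyl hydroxylase that acts on the collagen telopeptides, read 3514 and 3866 untreated and 1777 and 1714 treated in sh-scr cells, and 2559 and 2334 then 1497 and 1642 in sh-PRDM16 cells. It fell in both lines, with changes of -1.07 ± 0.13 (SE; adjusted p = 0.000891) and -0.64 ± 0.13 (SE; adjusted p = 0.0118). Plod1, a lysyl hydroxylase of the helix, was not called: it read 1145 and 1359 and 1487 and 1417 in sh-scr cells and 1372 and 1316 and 1296 and 1559 in sh-PRDM16 cells. Its changes were 0.22 ± 0.15 (SE; adjusted p = 0.252) and 0.08 ± 0.15 (SE; adjusted p = 0.78), and it rose in sh-scr cells after centring (0.51) and after quantile normalization. The sh-scr groups of Plod1 did not overlap, and the sh-PRDM16 groups did.

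P4ha1 and P4ha2, catalytic subunits of prolyl hydroxylase, were not called on the deposited scale. P4ha1 read 2123 and 2171 and 1746 and 1923 in sh-scr cells and 2779 and 2471 and 1979 and 2079 in sh-PRDM16 cells, with changes of -0.23 ± 0.13 (SE; adjusted p = 0.182) and -0.37 ± 0.13 (SE; adjusted p = 0.0974). P4ha2 read 3251 and 3200.2 and 2845 and 2543 in sh-scr cells and 4434 and 3920.4 and 3130.0 and 3419.9 in sh-PRDM16 cells, with changes of -0.26 ± 0.13 (SE; adjusted p = 0.144) and -0.35 ± 0.13 (SE; adjusted p = 0.124). After centring both fell in sh-PRDM16 cells (-0.39 and -0.37) and neither was called in sh-scr cells (0.07 and 0.03). Of the crosslinking enzymes, Loxl1, needed for elastic fibres, fell in sh-scr cells from 5147 and 4839 to 3692 and 3353 (-0.50 ± 0.13 (SE; adjusted p = 0.0174)), and read 5576 and 5136 then 3889 and 4133 in sh-PRDM16 cells (-0.42 ± 0.13 (SE; adjusted p = 0.0637)). Lox read 15007 and 13858 and 11639.7 and 11351 in sh-scr cells and 14169 and 12876 and 11685 and 12453 in sh-PRDM16 cells, and was not called (-0.33, adjusted p = 0.0682, and -0.16, adjusted p = 0.466).

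**Figure D3:**
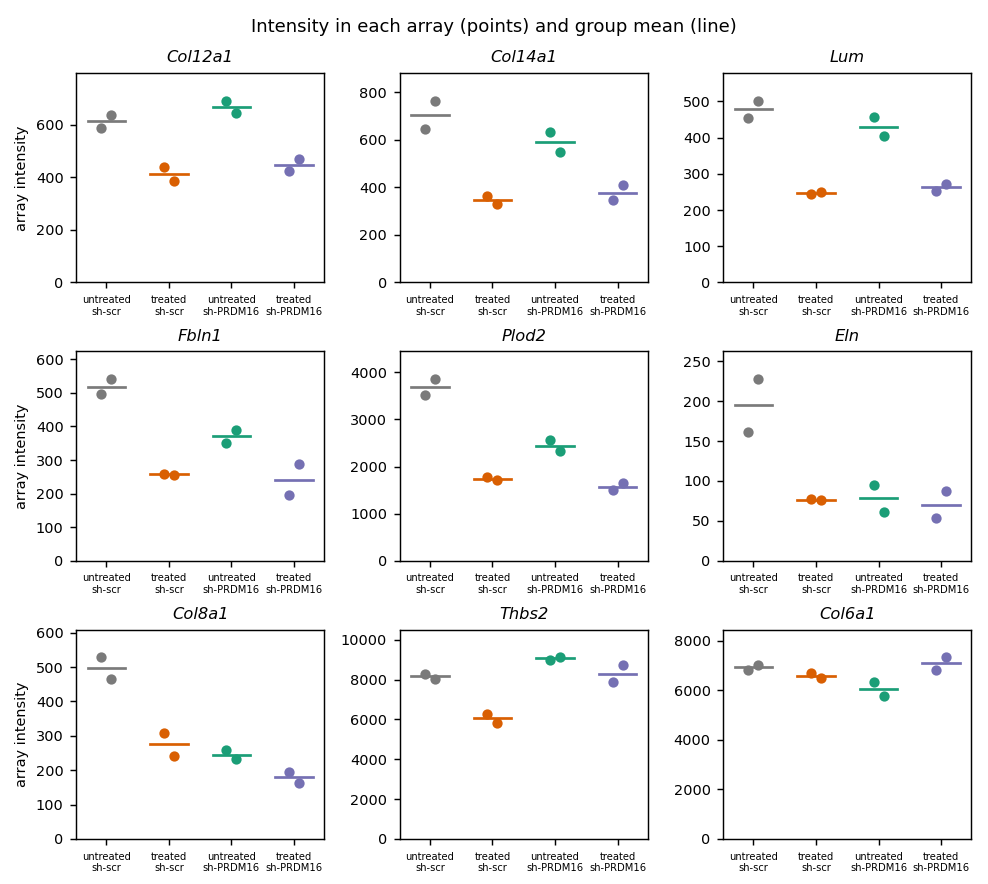
Array intensity (vertical axis, from 0) of 9 matrix genes in the 4 groups; points are arrays and lines are group means. The treated points of Col12a1, Col14a1, Lum, Fbln1 and Plod2 lie below the untreated points in both lines, Eln and Col8a1 are highest in untreated sh-scr cells, and Thbs2 is lowest in treated sh-scr cells.

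**Figure D4:**
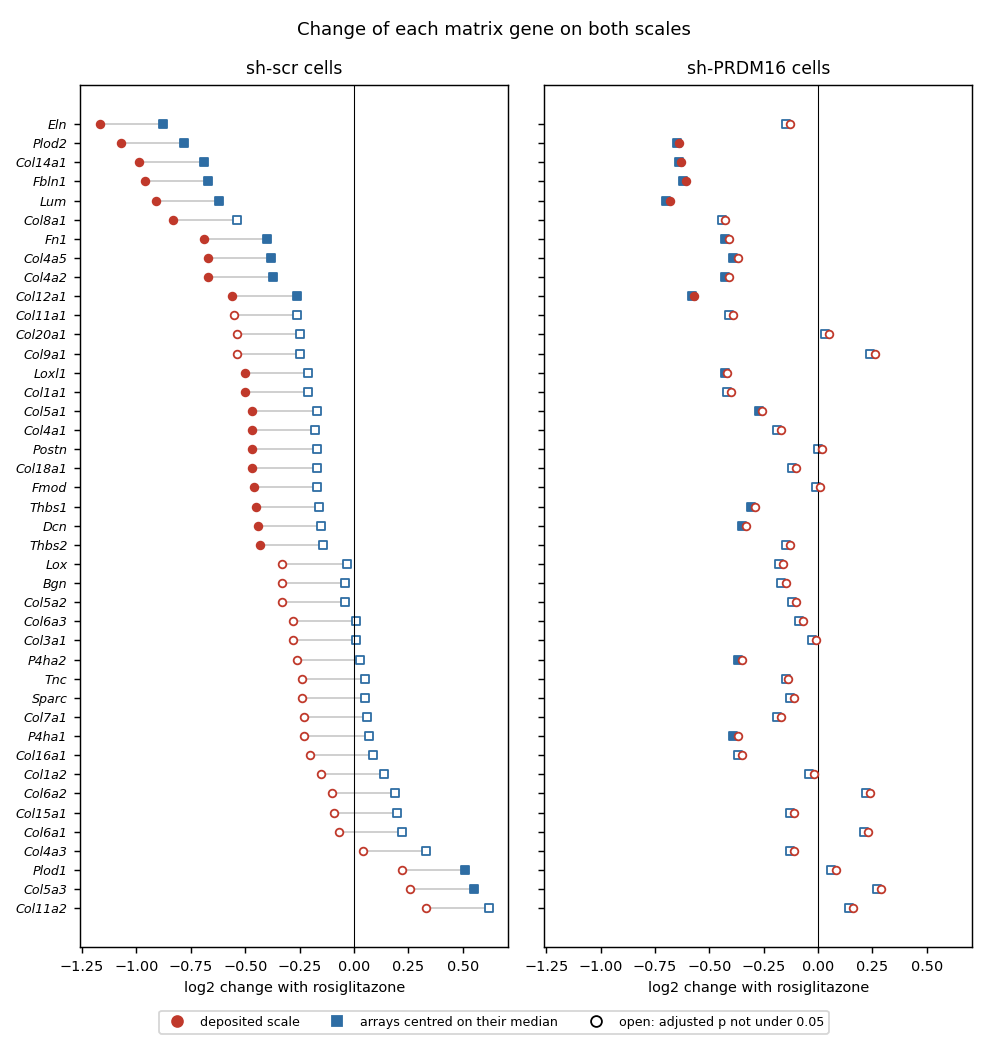
The log2 change with rosiglitazone of each of the 42 matrix genes (rows) in sh-scr cells (left) and sh-PRDM16 cells (right), on the deposited scale (circles) and after centring each array on its median (squares); filled symbols have an adjusted p under 0.05. Centring shifts every gene to the right in sh-scr cells, where 20 falls become 9 falls and 2 rises, and hardly moves them in sh-PRDM16 cells, where 5 falls become 14.

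Without rosiglitazone, 4 of 42 matrix genes were lower in sh-PRDM16 than in sh-scr cells and 0 were higher, where 15.7% of all genes were lower. This comparison uses the same untreated arrays as the rosiglitazone comparisons. The 4 were Eln (-1.17 ± 0.24 (SE; adjusted p = 0.0107)), Col8a1 (-0.97 ± 0.16 (SE; adjusted p = 0.00403)), Fmod (-0.59 ± 0.13 (SE; adjusted p = 0.016)) and Plod2 (-0.59 ± 0.13 (SE; adjusted p = 0.0144)). Of these, Col8a1 read 259 and 232 against 529.8 and 466, Eln 95.5 and 61.3 against 162 and 228, Fmod 1758 and 1934 against 2812 and 2747 and Plod2 2559 and 2334 against 3514 and 3866, so no sh-PRDM16 array reached a sh-scr array. The call for Col8a1 was kept under all 19 alternatives run. Leaving out replicate 2 of the untreated sh-scr cells left 1 call, and leaving out that of the untreated sh-PRDM16 cells left 2.

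The median of all genes in this comparison was -0.16. After centring, 3 members (Col8a1, Eln, Plod2) were lower, against 12.7% of all genes. On that scale 7 were higher, against 8.81% of all genes: Col5a3 (0.42), Col12a1 (0.31), Col16a1 (0.50), Dcn (0.37), P4ha1 (0.47), P4ha2 (0.55) and Thbs2 (0.34). None of these 7 was called as deposited, where their changes ran from 0.12 to 0.37. Macrophage markers moved with the hairpin: 7 of 9 were lower in untreated sh-PRDM16 cells, as deposited and after centring. Their median change was -2.17 as deposited and -1.98 after centring. Their summed intensity was 5120 to 5558 in untreated sh-scr and 1066 to 1139 in untreated sh-PRDM16 arrays. Lyz2, the macrophage lysozyme, changed by -3.69. Of 7 adipocyte markers measured, 6 were lower as deposited (median -0.99) and 5 after centring (median -0.8). Their summed intensity was 64234 to 64602 against 42215 to 48046. The part of either cell type in the matrix result was not tested, and in these bulk samples fewer cells of a type and less RNA per cell cannot be told apart.

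With rosiglitazone present, 1 member was higher and 1 lower in sh-PRDM16 cells, where 15.4% of all genes differed in either direction and the median of all genes was 0.15. Thbs2 read 7862 and 8718 in treated sh-PRDM16 against 6295 and 5822 in treated sh-scr cells, a change of 0.45 ± 0.13 (SE; adjusted p = 0.0421). Col8a1 read 195 and 163 against 309 and 240.5, a change of -0.57 ± 0.16 (SE; adjusted p = 0.0437), so it was lower in sh-PRDM16 cells in both conditions. Neither pair of groups overlapped, and both calls were also made after centring. On that scale 1 member was higher and 2 were lower, against 12.4% of all genes in each direction. The change of the dimmer Thbs2 probe set was 0.23. Both calls were lost when the dimmest probe set of each gene was used. The Thbs2 call was also lost with the mean of its probe sets. With every probe set fitted on its own, 0 sets of the members were lower as deposited. Leaving out any 1 of the treated or untreated sh-scr arrays, or of the treated sh-PRDM16 arrays, left 0 calls. Among macrophage markers 8 of 9 were lower here, also after centring, with a summed intensity of 3291 to 3295 in treated sh-scr and 863 to 890 in treated sh-PRDM16 arrays.

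The rosiglitazone responses of the lines were compared directly as the change in sh-PRDM16 cells minus that in sh-scr cells. By limma, 0 of 42 members were called, where 0.753% of all genes were called and the median difference of all genes was 0.33. An unadjusted p under 0.05 in limma was reached by 5 of 42 members and by 2376 of all 9294 genes. The 5 were Eln (1.04 ± 0.34 (SE; adjusted p = 0.146)), Col9a1 (0.80 ± 0.31 (SE; adjusted p = 0.168)), Postn (0.48 ± 0.18 (SE; adjusted p = 0.164)), Fmod (0.47 ± 0.19 (SE; adjusted p = 0.178)) and Plod2 (0.44 ± 0.18 (SE; adjusted p = 0.185)). Eln was called with a pseudocount of 64 (0.79), and Eln and Postn with a trended prior. As deposited, the change was higher in sh-PRDM16 than in sh-scr cells for 34 of 42 members (81%) and for 87.6% of all genes. After centring the direction turned: it was lower in sh-PRDM16 cells for 31 of 42 members (73.8%, against 46.4% of all genes), and after quantile normalization for 25 of 42 (59.5%, against 48.3%). The changes of the members in the lines, which share no array, had a Pearson correlation of 0.68 over 42 genes, against 0.735 over all genes tested. Genes are not independent replicates, and this is a description.

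On brightest probe sets, the hairpin effect of 10 members pointed down in every array without the drug and up in every array with it. They were Col1a2, Col3a1, Col4a2, Col5a2, Col6a1, Col6a2, Col9a1, Fn1, Postn and Sparc. Opposite effects without overlap, in either order, were seen in 13.1% of all genes as deposited. The dimmer tested sets of Col1a2, Col3a1, Col5a2, Col6a2 and Fn1 did not show the pattern, and that of Sparc did. Without the drug the dimmer Col3a1 set read 5610.3 and 5014 in sh-PRDM16 cells, above the 4711 and 4743 in sh-scr cells. On median-centred arrays 1 member had opposite effects, Plod1, and the share of all genes was not counted on that scale. None of the 10 differed between the responses in limma, with adjusted p from 0.164 to 0.586.

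Probe sets of the same gene did not always move by the same amount. Of the 93 probe sets 71 were tested, in 43 genes. In sh-scr cells 36 of them fell, in 23 genes, where 25.4% of all 15285 probe sets tested fell, and in sh-PRDM16 cells 9 fell, in 7 genes, against 2.26%. On that scale no gene had one probe set that rose and another that fell. After centring, 17 probe sets fell (13 genes) and 4 rose in sh-scr cells, and 26 fell (18 genes) and 0 rose in sh-PRDM16 cells. The share of all probe sets called was not counted on that scale. Of all genes tested, 11.9% fell in sh-scr and 9.91% in sh-PRDM16 cells after centring. Fmod, with 6 probe sets, had a negative change in sh-scr cells on each, from -0.34 to -1.03, and 4 of the 6 fell.

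The gap was widest for Col3a1 and Col5a2, the type III chain and a type V chain. The brighter Col3a1 probe set read 20894 and 20669 untreated and 16995 and 17129 treated in sh-scr cells, a change of -0.28. The dimmer one read 4711 and 4743 and 2350.2 and 2379.6, a change of -0.99 ± 0.13 (SE; adjusted p = 0.00281). In sh-PRDM16 cells the dimmer Col3a1 set read 5610.3 and 5014 and then 3311 and 3766 and fell as well (-0.58, adjusted p = 0.028), where the change of the brighter one was -0.01. The dimmer Col5a2 set read 3642 and 3853 untreated and 1897 and 1742 treated in sh-scr cells, a change of -1.04 ± 0.14 (SE; adjusted p = 0.00279), against -0.33 on the brighter set. In sh-PRDM16 cells it fell from 3805 and 3439 to 2167 and 2509.5 (-0.63, adjusted p = 0.0241), against -0.10. So with these sets both genes fell in both lines, and with the brighter ones in neither.

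Across the 21 members with more than 1 tested probe set, the dimmest set had the lower change in 13 (61.9%) in sh-scr cells and in 15 (71.4%) in sh-PRDM16 cells, against 44% and 49.3% of the 3720 such genes in all. Where the brightest set read above 5000 on average, the dimmest was lower in 9 of 13 members in sh-scr cells (69.2%, against 49.1% of 273 genes) and in 10 of 13 in sh-PRDM16 cells (76.9%, against 51.3%). The cause of this difference between probe sets was not tested. Among members above 5000, 8 of 18 fell in sh-scr cells and 0 of 18 in sh-PRDM16 cells as deposited, against 28% and 1.23% of all genes in that range. Among those up to 1000, 8 of 16 and 4 of 16 fell, against 31.3% and 3.31%.

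**Figure D5:**
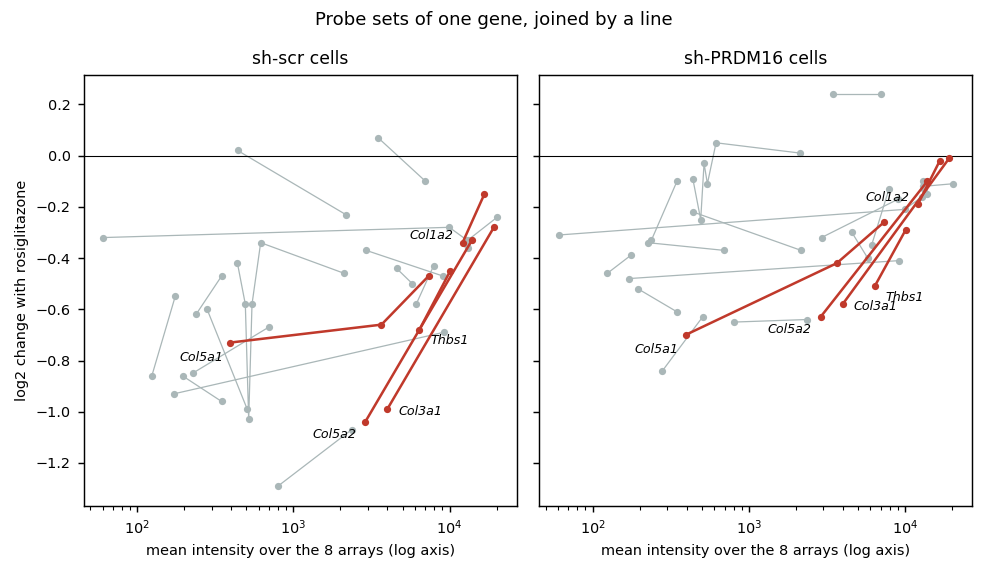
Each line joins the tested probe sets of 1 matrix gene, with mean intensity over the 8 arrays on a log axis and the log2 change with rosiglitazone on the vertical axis, in sh-scr (left) and sh-PRDM16 cells (right). In Col3a1 and Col5a2 (red) the dimmer probe set lies 0.71 below the brighter one in sh-scr cells, and 0.57 and 0.53 below it in sh-PRDM16 cells.

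Genes that work with the matrix members also had mostly lower values with the drug. Of 22 tested genes for collagen folding, processing and receptors, 20 fell and 0 rose in sh-scr cells (8 falls after centring). In sh-PRDM16 cells 0 fell (10 after centring). The shares of all genes that fell were 32.2% and 3.34% as deposited and 11.9% and 9.91% after centring. The largest falls were in Pcolce2, an enhancer of procollagen cleavage (-1.14 ± 0.15, SE), Ctsk, a collagen-degrading protease (-1.07 ± 0.14), Mrc2, a collagen uptake receptor (-0.93 ± 0.19), and the chaperone Fkbp7 (-0.83 ± 0.14). Of 22 other interstitial matrix genes 16 fell in sh-scr and 5 in sh-PRDM16 cells, and 0 rose in either (11 and 10 falls after centring). Dpt, dermatopontin (-1.27), and the leucine-rich proteins Ogn (-1.26) and Omd (-1.11), with Matn2, a matrilin (-1.26), led in sh-scr cells. In sh-PRDM16 cells Ogn (-0.76), Fbln5, a fibulin (-0.73), Vcan, versican (-0.65), and Omd (-0.64) led.

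Of 17 tested genes of TGF-beta signalling, a pathway known to drive collagen production, 13 fell and 0 rose in sh-scr cells, and 2 fell in sh-PRDM16 cells (8 and 9 after centring). The shares of all genes that fell were 32.2% and 3.34% as deposited and 11.9% and 9.91% after centring. Tgfb3, a ligand (-1.12 ± 0.19, SE), Ltbp3, which holds the ligand in the matrix (-0.80 ± 0.15), and the receptors Tgfbr2 (-0.73 ± 0.14) and Tgfbr1 (-0.71 ± 0.16) fell most in sh-scr cells. In sh-PRDM16 cells Ltbp2 (-0.70 ± 0.14) and Tgfbr1 (-0.57 ± 0.16) fell. Median changes over the folding, TGF-beta and interstitial lists were -0.55, -0.57 and -0.65 in sh-scr cells and -0.29, -0.33 and -0.26 in sh-PRDM16 cells, beside -0.31 and 0.00 over all genes.

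Markers of the cells that make matrix moved as well, beside the 32.2% and 3.34% of all genes that fell as deposited and 11.9% and 9.91% after centring. Preadipocyte and fibroblast markers fell in 5 of 6 genes in sh-scr cells and in 1 of 6 in sh-PRDM16 cells (4 and 5 after centring), with a summed intensity of 14736 to 15183 in untreated and 8060 to 9008 in treated sh-scr arrays, and 12936 to 15281 against 10306 to 11242 in sh-PRDM16 arrays. Pdgfrb (-0.99 ± 0.14, SE) and Pdgfra (-0.75 ± 0.14), receptors of stromal progenitors, were among those that fell in sh-scr cells, and Fap (-0.65 ± 0.18) fell in sh-PRDM16 cells. Smooth muscle and pericyte markers fell in 6 of 8 genes in sh-scr and 4 of 8 in sh-PRDM16 cells (4 in each after centring), with summed intensities of 29574 to 30613 against 20605 to 21638 and of 28289 to 30477 against 26336 to 26680. Endothelial markers fell in 3 of 6 in each line (1 and 3 after centring), at summed intensities of 406 to 900, and of 2 mesothelial markers tested (4 measured, summed intensity 143 to 909) Krt19 rose by 0.82 and 1.74 in the lines and Msln fell in sh-scr cells (-0.78), a call not made after centring. Adipocyte markers were present on all arrays (summed intensity 42215 to 65255). Of the 7 tested, 2 rose and 1 fell in each line, where 5.24% and 10.2% of all genes rose. Cidec, a lipid droplet protein, rose by 2.55 and 3.79, Lipe rose by 0.75 and 1.52, and Retn fell by 1.36 and 1.13 on the log2 scale in sh-scr and sh-PRDM16 cells. The change was below 0 for 5 of 7 in sh-scr cells (median -0.08) and for 1 of 7 in sh-PRDM16 cells (median 0.29). The part of these cell types in the matrix changes was not tested.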

How the data were processed

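Total RNA was hybridized as biotin-labelled cRNA to Affymetrix mouse arrays, per the labels' protocols. The deposited values were intensity on a linear scale for 22690 probe sets on 8 arrays; which software summarized them, and any scaling applied across arrays, is not given in the sources used here, and no detection calls were used. Value columns not mapped to a sample numbered 0.

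Gene names came from the platform annotation: 20380 probe sets had 1 gene, 691 had several, 1555 were not listed and 64 were controls. A gene was its probe set with the highest mean. Values became log2(intensity + 16), which understates changes of dim genes; the lowest 25% of genes by mean over all arrays were left out. limma 3.58.1 (R 4.3.3) was fitted to all 8 arrays with 1 mean per group (4 residual and 5.23 prior degrees of freedom), with 5 two-sided contrasts and Benjamini-Hochberg adjustment over 9294 genes at 0.05. The script was tested on simulated data. Precision is limited by 2 arrays per group.

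Alternatives were median-centring, quantile normalization, no filter or 50%, the mean of probe sets, pseudocounts of 1 and 64, a trended prior, a replicate block, a fit of only the 2 groups at hand, and each array left out in turn; taking the dimmest probe set was added after seeing the data. Members and lists were chosen with earlier results of these data known. Per-array values were printed for a written list (Col1a1, Col1a2, Col3a1, Col4a1, Col4a2, Col5a1, Col5a2, Col6a1, Col6a2, Col6a3, Col15a1 and every member that is no collagen except Eln, Fbln1 and Fmod) and, in each contrast, for the 8 called members with the largest change, which added Col4a5, Col8a1, Col12a1, Col14a1, Eln, Fbln1 and Fmod. Col5a3 was added after its values were seen. For pathway lists, up to 4 called genes with the largest change in each rosiglitazone contrast were named; other marker genes were chosen after their values were seen. Promoter sequences are RefSeq's (GRCm38.p6). Correlations of replicate differences between groups, from -0.0276 to 0.0286, did not pair the replicate numbers.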

Additional observations from a re-analysis of the deposited data

Results flagged for a closer look

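Col6a1 and Col6a2 stood out on their brightest probe sets. Every treated array lay below every untreated array in sh-scr cells and above it in sh-PRDM16 cells. The differences between responses were 0.30 and 0.34 on the log2 scale (limma adjusted p = 0.273 and 0.248). The other 8 members stood out because, on their brightest probe sets, the sh-PRDM16 effect pointed down in every array without rosiglitazone and up with it. Their differences between responses were 0.13 for Col1a2 (adjusted p = 0.571), 0.28 for Col3a1 (0.304), 0.26 for Col4a2 (0.339), 0.24 for Col5a2 (0.347), 0.80 for Col9a1 (0.168), 0.28 for Fn1 (0.29), 0.48 for Postn (0.164) and 0.13 for Sparc (0.586). None passed the test of the difference itself, and the median difference of all genes was 0.33. On median-centred arrays none of the 10 showed the pattern, and the share of all genes that did was not counted there. As deposited, the dimmer tested probe sets of Col1a2, Col3a1, Col5a2, Col6a2 and Fn1 did not show it either.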

How the results depend on the processing

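Counts of called members are those of the limma fit. Rosiglitazone in sh-scr cells called 20 as deposited, 11 after median-centring (9 falls, 2 rises) and 6 to 23 when 1 array was left out. In sh-PRDM16 cells 5 became 14 after centring, 17 after quantile normalization, 3 with no filter, 13 with a 50% filter, 10 with a pseudocount of 64, 14 with a trended prior and 0 to 4 when 1 array was left out. The hairpin comparison without the drug went from 4 to 10 after centring, 11 after quantile normalization and 1 to 4 when 1 array was left out. With the drug it went from 2 to 4 after quantile normalization, 5 with a trended prior, 0 with no filter, 0 with a pseudocount of 1, 0 with only the arrays compared and 0 to 2 when 1 array was left out. The difference between responses went from 0 to 1 with a pseudocount of 64 and 2 with a trended prior. With the replicate block the counts, in the same order, were 21, 5, 5, 1 and 0. The other planned counts stayed within 1.5 times, as did those from the dimmest probe set of each gene, which gave 20, 5, 3, 2 and 0. No called member changed sign under any alternative run. Of the 20 falls in sh-scr cells, Col14a1, Fbln1, Fn1, Lum and Plod2 were kept under all 19 alternatives and Eln under the 18 it entered. The causes of these shifts were not tested.

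Arrays left out leave 1 array in a group, assumed to vary like the others. Intensities carry no detection calls here, so members near the floor, such as Col4a3, Col9a1, Col11a2 and Col20a1, have understated changes. Whether values near the top of the range are limited was not tested.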
